A study of Drosophila melanogaster with 4 samples.

Results

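The tetraspanins are a family of 36 genes among the 14935 genes measured in sorted cells of the *Drosophila* retina. The members are the genes whose symbol begins with Tsp and a digit, together with lbm and TM4SF. The gene listed as sun is annotated to the ATP synthase and was left out, and 0 rows carried the symbol ocm. By their order in the annotation, 18 members (17 Tsp42E genes and lbm, which lies between Tsp42El and Tsp42En) form a tandem cluster on chromosome arm 2R, and the other 18 are scattered over the X, 2L, 2R, 3L and 3R arms. RNA came from 4 libraries, 1 each of larval, pupal and adult cone cells (CCs, the Semper cells that cap and span each ommatidium) and of adult photoreceptors (PRs). The eyes of 45 to 75 animals were dissected per sample, from wandering larvae of the last instar, from pupae at 25 h after puparium formation, and from adults of 1 to 2 days.

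Larval and pupal CCs were sorted as GFP-positive cells from sev mutants carrying prosPSG-GFP and the balancers TM2/TM6B. The prosPSG enhancer is active in CCs and in R7 photoreceptors, and sev mutants lack R7. Adult CCs came from yw67; sp/CyO; TM2/TM6B flies and were gated with antibodies against Fas3, an adhesion protein that marks CCs, and with 22C10, which labels PRs and bristle neurons. Adult PRs were the RFP-positive, GFP-negative cells of prosPSG-GFP retinas, in which 3xP3-RFP marks PRs and the gate leaves out cells with an active prosPSG enhancer. Pupal and larval CCs therefore differ in stage. Adult CCs and PRs share the stage and differ in genotype and gate, and adult and pupal CCs differ in stage, genotype and gate, so that these factors cannot be told apart.

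Tetraspanins are small membrane proteins that cross the bilayer several times and expose a short and a long extracellular loop. They bind one another and partner proteins such as integrins and ADAM proteases, and they organise membrane domains, endosomal sorting and cell contacts. In the fly, Tsp42Ej (sunglasses) is a lysosomal protein of the eye needed to degrade rhodopsin and to protect PRs from light, lbm (late bloomer) promotes synapse formation by motor neurons, Tsp3A, Tsp26A and Tsp86D belong to the TspanC8 group that carries the ADAM protease Kuzbanian to the cell surface for Notch signalling, and Tsp2A builds smooth septate junctions of the gut with Ssk and Mesh.

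Levels are the log2 of TMM-normalized read counts per gene, and the corresponding linear values are called units. A gene at 1 unit or less is listed at 0. Each condition has 1 library, so the differences could not be set against a spread between replicates and carry no p-value. Differences are those of log2(units + 4), and a gene passed the size rule where the difference reached 2, which is 4-fold, and the higher library held at least 32 units (a log2 level of 5). Low values were spaced in steps of 0.597 (larval), 0.634 (pupal) and 0.854 units (adult) in the CC libraries and of 1.66 units in PRs. If 1 step is 1 read, the columns hold an estimated 1.60 (PRs) to 3.81 (adult CCs) M reads and 32 units stand for 19.3 to 53.6 reads. Between 36.9% and 65.8% of the low values were whole multiples of the step within 0.02, so that reads were not recovered and the true depth is unknown. The PR markers matched the labels: the 10 genes summed to 375206 units in PRs and to between 428.6 and 1806.2 in CCs, and both younger CC libraries had a listed 0 for the opsin gene ninaE. Of the 10 PR markers, norpA alone reached 32 units in larval and in pupal CCs, and in adult CCs Arr2 and trp did so as well. In the other direction, the PR library held transcripts of 5 cone cell and lens genes (4928.0 units, against 217470 in adult CCs). It also held transcripts of 6 pigment cell genes (12293 units).

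The family was dominated by a different gene in each adult cell type: Tsp42Ee in CCs and Tsp97E and Tsp42Ej in PRs. Counted per library, 12, 13 and 14 members reached 32 units along the CC stages (larval, pupal and adult) and 10 in PRs. In percent these are 33.3, 36.1, 38.9 and 27.8, against 34.3, 38.7, 36.7 and 33.1 of all genes. Together the members took 0.148%, 0.179% and 0.406% of all units along the CC stages and 0.268% in PRs. Tsp42Ee alone made up 74.1% of the family's units in adult CCs, against 37.0% (larval CCs), 22.9% (pupal CCs) and 5.57% (PRs) elsewhere. In sorted bulk cells, fewer cells of a type and less RNA per cell cannot be told apart.

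**Figure D1:**
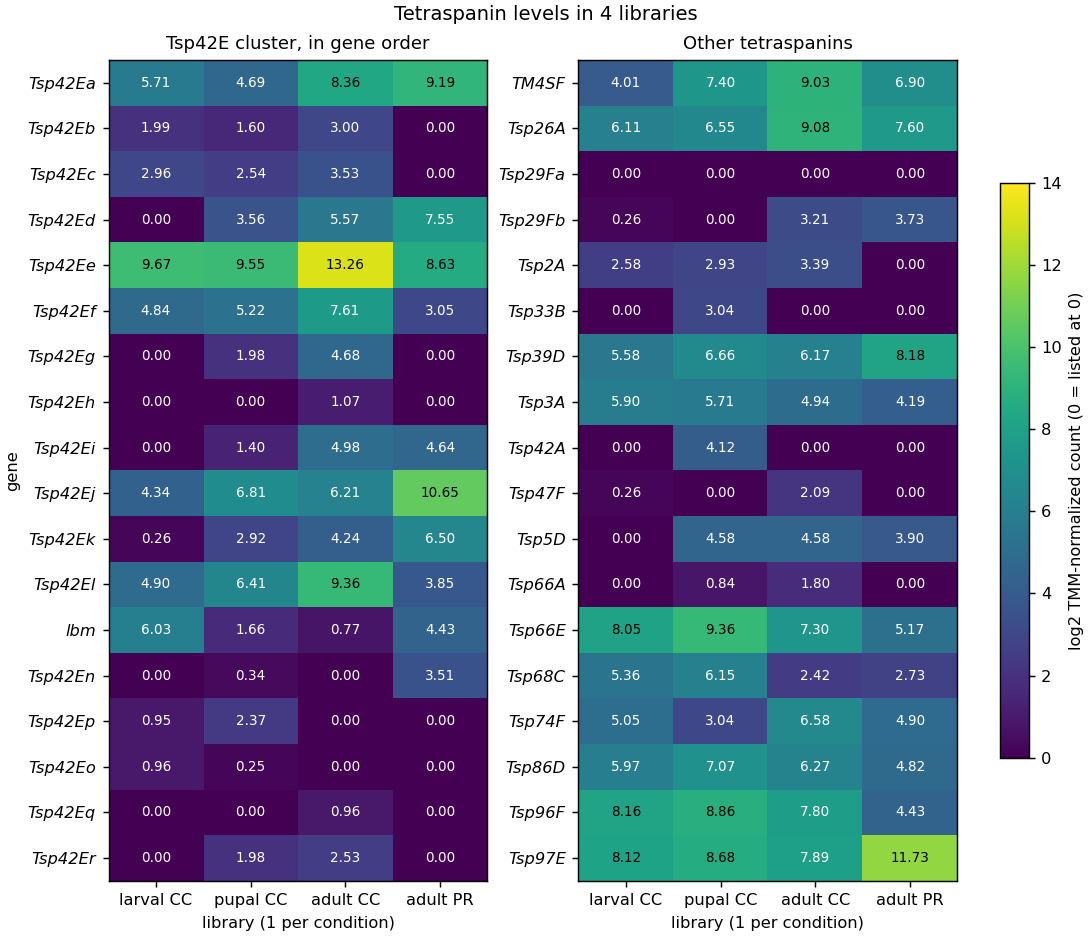
Log2 TMM-normalized level of the 36 tetraspanins (rows) in the 4 libraries (columns), with the Tsp42E cluster in gene order on the left and the other members on the right. Each cell is 1 value of 1 library, and 0 means listed at 0. Tsp42Ee in adult CCs (13.26), Tsp97E in PRs (11.73) and Tsp42Ej in PRs (10.65) are the brightest cells.

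Of the 36 members, 18 reached 32 units in some library, as did 7462 of all 14935 genes, so the family was at the share of all genes. Of the 18, 8 lie in the cluster and 10 outside it. The 5 that reached 32 units in all 4 libraries were Tsp42Ee, Tsp26A, Tsp39D, Tsp66E and Tsp97E, and the share of all genes that did so was not counted. Per kilobase of coding sequence, which ranges from 624 to 1086 bases in the family, Tsp42Ee ranked 1st of the 36 in each of the 3 CC libraries, at 1187, 1095 and 14323 units per kb in larval, pupal and adult CCs. In adult CCs Tsp42El followed at 1010, TM4SF at 596, Tsp26A at 575 and Tsp42Ea at 485 units per kb. In PRs Tsp97E ranked 1st at 4978 units per kb and Tsp42Ej 2nd at 2357, followed by Tsp42Ea at 860 and Tsp42Ee at 580. Divided by summed exon length instead, Tsp42Ee was still 1st in the 3 CC libraries, and Tsp42Ej was 1st and Tsp97E 2nd in PRs.

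Between the adult libraries, 9 members reached 32 units in both, 5 in adult CCs alone and 1 (Tsp42Ek) in PRs alone. Of all genes, 36.7% reached 32 units in adult CCs and 33.1% in PRs. The share of all genes that did so in both or in 1 alone was not counted, and the PR library has the lower estimated depth. By the rule of size 6 members were higher in adult CCs (16.7%, against 9.31% of all genes) and 3 were higher in PRs (8.33%, against 4.91% of all genes), so 25.0% of the family was called against 14.2% of all genes. With 8 units asked for in at least 1 of the libraries compared, the median difference was 1.33 over 25 tetraspanins and 0.67 over 9098 genes. The split depended on the scaling: with equal library totals, and with a scaling by the median ratio of each library to their mean, 4 members were higher in adult CCs and 5 in PRs. These scalings shift the log2 ratio of adult CCs to PRs by -0.29 and -0.51.

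Tsp42Ee (FBgn0029506), annotated in the files to the fusome, an organelle of germline cysts, had log2 levels of 9.67 and 9.55 in the larval and pupal CC libraries, 13.26 in the adult one and 8.63 in PRs. It was thus highest in adult CCs, where its 9797 units were 24.7 times the 396.7 units of PRs. On the log2(units + 4) scale the difference was 4.61. The 5 cone cell and lens genes had a median difference of 4.67 between the same libraries, from 1.61 (Cpr72Ec) to 7.87 (Crys). The part of cone cell RNA in the PR value of Tsp42Ee was not tested. On the ranking described in the study's methods, which subtracts the square root of the PR value from that of the adult CC value, Tsp42Ee was gene 17 of 14935.

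Tsp42El (FBgn0033134) had log2 levels of 4.90, 6.41 and 9.36 in larval, pupal and adult CCs and 3.85 in PRs. Its difference between adult CCs and PRs, 5.17, was the largest of the family with the deposited scaling, and the ratio of units was 45.6. With 16 units added in place of 4, Tsp42Ee (4.57) exceeded it (4.47), and with the median ratio scaling Tsp42Ej (-4.86) was farther from 0 (4.71). The PR value rests on an estimated 8.69 reads. Tsp42Ef (FBgn0033127), at 4.84, 5.22, 7.61 and 3.05 in the same order of libraries, had a difference of 4.02, with an estimated 5.0 reads in PRs. In both genes the adult CC level was the highest of the 4 libraries and the PR level the lowest.

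Outside the cluster, Tsp96F (FBgn0027865) was at 8.16, 8.86 and 7.80 in larval, pupal and adult CCs and at 4.43 in PRs, and its adult CC value was 10.3 times that of PRs (difference 3.14). Unlike Tsp42Ee, Tsp42Ef and Tsp42El it was not highest in adult CCs among the CC libraries, and the PR library alone was low. TM4SF (FBgn0020372), which encodes a plasma membrane protein, was at 9.03 in adult CCs and 6.90 in PRs (difference 2.09), and Tsp66E (FBgn0035936) at 7.30 and 5.17 (difference 2.02). Both differences lie close to 2, and with either other scaling neither passed the rule (1.8 and 1.6 for TM4SF, 1.72 and 1.54 for Tsp66E).

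Genes of other cell types moved with some of these results. The 6 pigment cell genes summed to 77.9, 256.9 and 96832 units along the CC stages and 12293 in PRs, with santa-maria and rdhB at 0 in larval CCs and none at 0 elsewhere. Nearly all of the adult CC sum was Pdh (94871 units). Pdh, st, bw and rdhB were highest in adult CCs, as were Tsp42Ee, Tsp42Ef, Tsp42El, Tsp26A, Tsp74F and TM4SF, while w was highest in larval CCs (60.9 units) and santa-maria in PRs (379.1 units). The part of pigment cells in these levels was not tested. The 5 cone cell and lens genes were also highest there, at 217470 units, against 1134.6 and 3590.7 in larval and pupal CCs and 4928.0 in PRs. The 5 tracheal genes, 4 of which were above 0 in larval CCs, 5 in pupal and adult CCs and 3 in PRs, summed to 2591.1, 619.9 and 5447.9 units along the CC stages and 189.3 in PRs. Nearly all of the adult CC sum was Gasp, a chitin-binding protein gene, at 1222.3, 265.7 and 5369.6 units along the CC stages. The chitin deacetylase genes verm (886.9, 227.4 and 43.3 units) and serp (479.2, 111.5 and 20.5 units) were lowest among CCs in the adult library, and the tracheal regulator genes btl and trh did not exceed 10.1 units in any library. The part of trachea in the levels of Tsp42Ee was not tested.

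The genes higher in PRs were led by Tsp42Ej and Tsp97E. The lysosomal tetraspanin gene Tsp42Ej (FBgn0033132) had log2 levels of 4.34, 6.81 and 6.21 in the larval, pupal and adult CC libraries and 10.65 in the PR library, or 20.3, 111.9, 73.9 and 1605 units. The PR value was 21.7 times that of adult CCs (difference -4.37) and above all CC values. On the square root ranking in favour of PRs, Tsp42Ej was gene 102 of 14935.

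Tsp97E (FBgn0039465) stayed between 7.89 (adult CCs) and 8.68 (pupal CCs) in the CC libraries, with 8.12 in larval CCs, and reached 11.73 in PRs, where it was gene 67 on the same ranking. Its 3405 units in PRs were 14.4 times its 236.9 units in adult CCs (difference -3.82). The PR value stood apart from the 3 CC values, none of which was below 236.9 units. Tsp42Ek (FBgn0033133), the neighbour of Tsp42Ej, was at 0.26, 2.92 and 4.24 along the CC stages and at 6.50 in PRs (adult difference -2.04). The exons of Tsp42Ej and Tsp42Ek share 107 bases on the same strand, so the reads of these genes may have been split by the counting.

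Several members were close to the rule in favour of PRs without passing it. Tsp39D (FBgn0032943) was at 6.17 in adult CCs and 8.18 in PRs (difference -1.95) and Tsp42Ed (FBgn0029507) at 5.57 and 7.55 (difference -1.89). In larval and pupal CCs Tsp39D was at 5.58 and 6.66, and Tsp42Ed was at 3.56 in pupal CCs with a listed 0 in larval CCs. Both pass the rule with either other scaling, at -2.22 and -2.45 for Tsp39D and at -2.15 and -2.38 for Tsp42Ed. For lbm (FBgn0016032), the synapse gene, the difference was -2.16, but its level of 4.43 in PRs (21.6 units) falls short of the required 32 units.

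Tsp42Ea (FBgn0029508) was abundant in both adult libraries. Its levels were 5.71, 4.69 and 8.36 along the CC stages and 9.19 in PRs, and the adult difference of -0.82 was far from the rule. Its exons share 97 bases with those of CG30159 on the same strand, which was at 6.97 in adult CCs and 4.38 in PRs.

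**Figure D2:**
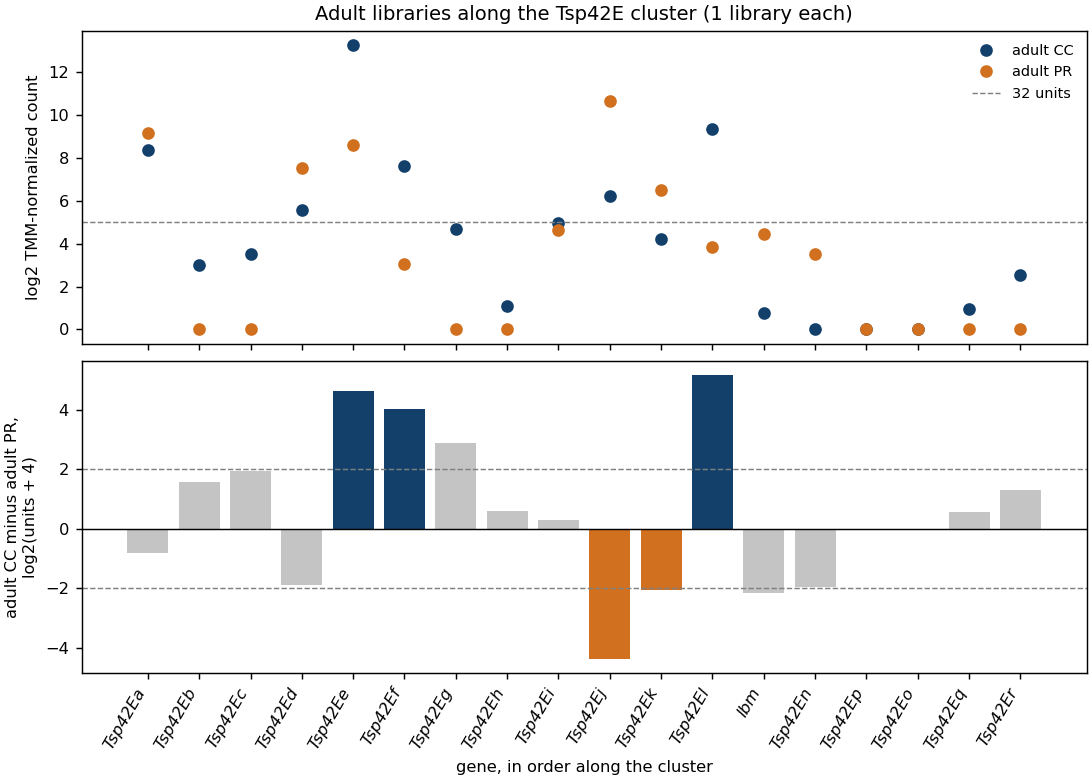
Top, log2 level in adult CCs (blue) and adult PRs (orange) of the 18 genes of the Tsp42E cluster in their order along the chromosome arm, 1 library each, with the dashed line at 32 units. Bottom, the difference of log2(units + 4), adult CC minus adult PR, with dashed lines at -2 and 2. Coloured bars pass the 4-fold rule: Tsp42Ee, Tsp42Ef and Tsp42El are higher in adult CCs, and Tsp42Ej and Tsp42Ek, which lie between them, are higher in PRs.

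Along the cluster, Tsp42Ek and Tsp42El were the 1 neighbouring pair that passed the rule in opposite directions. Of its 18 genes, 15 are on the plus strand and 3 (Tsp42Ed, Tsp42Ep and Tsp42Eq) on the minus strand. Reading in order, Tsp42Ed (difference -1.89) is followed by Tsp42Ee (4.61) and Tsp42Ef (4.02), and Tsp42Ej (-4.37) and Tsp42Ek (-2.04) by Tsp42El (5.17) and lbm (-2.16). The gap between the differences of neighbours was 6.51 for Tsp42Ed and Tsp42Ee, 7.21 for Tsp42Ek and Tsp42El, and 7.33 for Tsp42El and lbm, where Tsp42Ed did not reach a difference of 2 and lbm did not reach 32 units. In contrast, the gap was 0.60 for Tsp42Ee and Tsp42Ef. Of the 18 cluster genes, 10 were highest in adult CCs, 5 in PRs, 2 in larval CCs and 1 in pupal CCs. Of the 17 neighbouring pairs, 7 were highest in the same library, and the number in a random order was not computed. Among these, Tsp42Ee with Tsp42Ef is the 1 pair whose genes both reach 32 units and share no exon bases.

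From pupal to adult CCs, the genes that passed the rule upward were mostly in the cluster. Of the 36 members, 6 were higher in adult CCs (16.7%, against 6.47% of all genes) and 2 were lower (5.56%, against 6.11%). This comparison shares the adult CC library with the one above, so the values of each are given side by side and are not independent. Tsp42Ea went from 25.8 to 328.6 units, 12.7 times higher (difference 3.48). For Tsp42Ee the ratio was 13.1 (difference 3.70), for Tsp42El 7.74 (2.89) and for Tsp42Ef 5.23 (2.27).

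Outside the cluster, Tsp74F (FBgn0036769) was at 5.05, 3.04 and 6.58 along the CC stages and at 4.90 in PRs, so that pupal CCs were its lowest library (difference 3.02 from pupal to adult CCs). Tsp26A (FBgn0031760), a TspanC8 gene, was at 6.11, 6.55, 9.08 and 7.60 in the same order, with a difference of 2.48. Its exons share 165 bases with the opposite-strand gene Gal, which was at 1.34 in pupal and 2.58 in adult CCs. With equal library totals, which shift the log2 ratio of adult to pupal CCs by -0.83, Tsp26A (1.67) and Tsp42Ef (1.48) no longer passed, and 4 members were higher and 2 lower.

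The genes lower in adult than in pupal CCs were Tsp68C and Tsp66E. Tsp68C (FBgn0043550), annotated to the trans-Golgi network and to hemopoiesis, was at 5.36 (larval) and 6.15 (pupal) in the younger CCs, against 2.42 in adult CCs and 2.73 in PRs. Its 70.8 units in pupal CCs were 13.2 times those of adult CCs (difference -3.00). Both adult libraries were low, at an estimated 6.26 reads in adult CCs and 4.0 in PRs. Tsp66E, at 8.05, 9.36, 7.30 and 5.17, was highest in pupal CCs (difference -2.03), and its exons share 173 bases with the opposite-strand gene mfr.

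The median difference from pupal to adult CCs was 1.90 over the 11 Tsp42E genes at 8 units or more in either library and -0.70 over 15 other tetraspanins, against -0.05 over 9948 genes. This gap between the cluster and the rest, 2.60, was not tested, since genes of 1 pair of libraries are not replicates. Over all 18 and 18 members it was 0.95. Between adult CCs and PRs the medians were 0.30 over 13 cluster genes and 1.40 over 12 others, and from larval to pupal CCs they were 0.34 over 7 and 1.02 over 13, beside 0.67 and 0.38 over all genes. The cluster genes thus had the lower median in these comparisons and the higher one from pupal to adult CCs, with overlapping spans in each. With lbm counted among the other members by its symbol, the gap from larval to pupal CCs was -0.009 in place of -0.68, and that between adult CCs and PRs was -0.39 in place of -1.10.

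From larval to pupal CCs, where genotype and gate were the same, 8.33% of the members passed the rule, against 5.71% of all genes. Of the 36 members, 2 were higher (5.56%, against 4.64% of all genes) and 1 was lower in pupal CCs (2.78%, against 1.07%). TM4SF went from 4.01 to 7.40, 10.5 times higher in units (difference 3.10), and continued to 9.03 in adult CCs. Tsp42Ej was at 4.34 and 6.81 (difference 2.25).

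The synapse gene lbm was at 6.03, 1.66 and 0.77 along the CC stages and at 4.43 in PRs. The larval value was the highest and the pupal and adult CC values were near the lowest that are listed, with a difference of -3.28 from larval to pupal CCs. For Tsp42Ee this step was -0.12, for Tsp97E 0.55 and for Tsp96F 0.69, so that these genes, at 812.2, 278.7 and 285.4 units in larval CCs, stayed far from the rule between these stages.

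Hemocyte and bristle genes were low in larval CCs and in PRs. The 7 hemocyte genes summed to 8.4, 415.4 and 269.3 units along the CC stages and 18.0 in PRs, with He at 0 in all 4 libraries and NimC1, Sr-CI, eater and srp also at 0 in larval CCs. From pupal to adult CCs Pxn went from 224.2 to 7.7 units and Hml from 102.5 to 150.6, and the median difference of the list was 0.23. TM4SF was likewise lowest in larval CCs, as were Tsp42Ed, Tsp42Ej, Tsp42Ek, Tsp26A and Tsp39D among the members at 32 units in some library. From pupal to adult CCs TM4SF went from 168.5 to 521.8 units, and it was at 119.1 units in PRs. The part of hemocytes in the levels of these genes was not tested. The 4 bristle genes summed to 17.6, 174.0, 49.3 and 3.3 units in the same order, and Tsp66E, Tsp68C, Tsp86D and Tsp96F were also highest in pupal CCs. Among genes at 32 units in some library, 22.2% of the members and 23.2% of all genes peaked in pupal CCs. The part of bristle cells in these levels was not tested. The 7 genes listed for optic lobe glia were above 0 in all 4 libraries and summed to between 159.2 (larval CCs) and 640.0 units (adult CCs). Of these, wrapper made up 341.1 units in adult CCs. The study reports repo, wrapper and Eaat1 in CCs themselves, so this list does not mark optic lobe glia alone. The 7 fat body genes summed to at most 24.0 units in CCs and 164.5 in PRs, mostly Yp3, and of the 6 gut genes alphaTry, betaTry, Jon65Ai and Amy-p were at 0 in all 4 libraries, mex1 was above 0 in adult CCs alone (2.6 units), and LManII was at 46.7, 104.3 and 57.9 units along the CC stages and 23.2 in PRs.

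**Figure D3:**
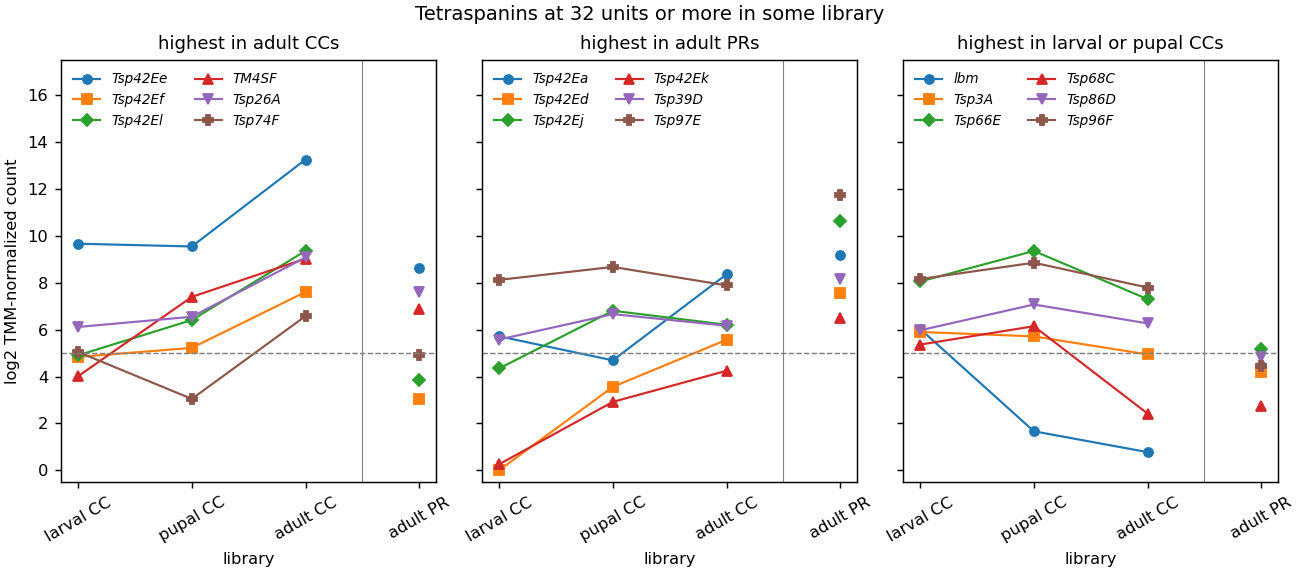
Log2 level of the 18 tetraspanins that reach 32 units in some library (dashed line), grouped by the library in which they are highest. Lines join larval, pupal and adult CCs, and the separate points to the right are adult PRs, with 1 library per point. The left panel shows Tsp42Ee at 13.26 in adult CCs, the middle panel Tsp97E at 11.73 in PRs, and the right panel lbm going from 6.03 in larval CCs to 0.77 in adult CCs.

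The TspanC8 genes were above 0 in all 4 libraries, at levels between 4.19 and 9.08. Tsp86D (FBgn0037848) was at 5.97, 7.07 and 6.27 along the CC stages and at 4.82 in PRs, and Tsp3A (FBgn0040334) at 5.90, 5.71, 4.94 and 4.19. In PRs Tsp86D and Tsp3A stood for an estimated 17 and 11 reads. Neither Tsp86D nor Tsp3A passed the rule in any comparison, with differences between adult CCs and PRs of 1.33 and 0.64, and Tsp26A, with 1.46 in that comparison, passed it only from pupal to adult CCs.

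Their protease partner gene kuz stayed between 8.79 (pupal) and 9.02 (adult) in CCs, with 8.93 in the larval library, and was at 7.31 in PRs. Of 5 measured genes of ADAM proteases, the Notch receptor and its ligands, 2 passed the rule in favour of adult CCs and 0 in favour of PRs, with a median difference of 1.68, beside the same 9.31% and 4.91% and the median of 0.67 over all genes. These were the ligand gene Dl, at 7.70 and 3.90, and the receptor gene N, at 9.07 and 7.04, whose difference of 2.00 lies at the edge of the rule and fell to 1.71 and 1.5 with the other scalings. The ADAM protease gene Tace was at 7.05 in pupal CCs and 0.77 in adult CCs (difference -4.58), the 1 gene of this list that passed the rule between these stages. Of all genes, 6.11% were lower and 6.47% higher in adult than in pupal CCs.

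All 7 integrin subunit genes listed were measured. Between the adult cell types 4 of them passed the rule in favour of CCs and 0 in favour of PRs, with a median difference of 2.54 over the 5 at 8 units or more, beside 9.31% and 4.91% of all genes and their median of 0.67. With either other scaling 3 passed in favour of CCs. The beta subunit gene mys was at 9.22, 8.78 and 10.18 along the CC stages and at 7.99 in PRs, and its difference of 2.17 did not pass with the other scalings (1.88 and 1.67). The alpha subunit gene if was at 8.33, 5.09, 7.85 and 4.32 and passed the rule in all 3 comparisons, lower at the pupal than at the larval stage (-3.10) and higher at the adult than at the pupal stage (2.63, or 1.84 with equal library totals). The alpha subunit genes mew (8.02 in adult CCs, 5.22 in PRs) and scb (7.03 and 4.26) made up the 4. From pupal (5.22) to adult CCs mew also passed the rule (2.67, or 1.87 with equal library totals). Thus 2 of the 7 subunit genes, if and mew, were higher between these stages, beside 6.47% of all genes.

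Of all genes, 9.31% passed the rule in favour of adult CCs and 4.91% in favour of PRs, with a median difference of 0.67. The 11 measured genes of endosomes, multivesicular bodies and lysosomes had a median difference of 0.13. Of these, 0 passed the rule in favour of adult CCs and 1 in favour of PRs. That gene was Vps25, an ESCRT subunit gene, at 3.21 and 6.07, and with the other scalings the ESCRT subunit gene Vps28 (4.86 and 6.83) passed as well. The late endosome gene Rab7 was at 7.40, 7.53 and 10.14 along the CC stages and at 10.35 in PRs, and the lysosomal membrane gene Lamp1 at 6.93, 6.96, 9.34 and 9.09. From pupal to adult CCs both passed the rule, at 2.59 and 2.34, but not with equal library totals, at 1.76 and 1.52. They were the 2 of the 11 genes that passed between these stages, beside 6.47% of all genes higher and 6.11% lower. Between adult CCs and PRs their differences were -0.21 and 0.25, beside -4.37 for Tsp42Ej. Hrs, Stam, TSG101 and lt, which act in endosomal sorting and fusion, passed the rule in none of the comparisons, at 7.0, 7.03, 9.19 and 8.67 in adult CCs and at 8.51, 8.16, 8.67 and 7.46 in PRs.

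Tsp2A had levels of 2.58, 2.93 and 3.39 along the CC stages and a listed 0 in PRs, all below 32 units. Its smooth septate junction partner genes Ssk and mesh were at 6.11 and 3.55 in adult CCs and 5.64 and 1.34 in PRs. Of them, mesh alone passed the rule, from 0.84 in larval to 5.07 in pupal CCs (difference 2.70), and with the median ratio scaling its difference of 2.57 came with under 32 units.

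Of the 18 members below 32 units everywhere, 10 are in the cluster. Tsp42Ei (4.98 in adult CCs, 4.64 in PRs), Tsp42Eg (4.68 in adult CCs) and Tsp5D (4.58 in pupal and in adult CCs, 3.90 in PRs) came closest to 32 units. Tsp42Eg, with 25.6 units in adult CCs, was listed at 0 in larval CCs and PRs. Tsp42A (4.12) and Tsp33B (3.04) were above 0 in pupal CCs alone, and Tsp42En was at 3.51 in PRs and at 0.34 or less in CCs. Tsp29Fa was listed at 0 in all 4 libraries, while its neighbour Tsp29Fb was at 3.21 in adult CCs and 3.73 in PRs.

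Tsp42Ec and Tsp42Er were at 3.53 and 2.53 in adult CCs and at 0 in PRs, and Tsp47F at 2.09 and 0. Tsp42Eh, Tsp42Eo, Tsp42Ep and Tsp42Eq did not exceed 2.37 in any library. Tsp66A, which did not exceed 1.8, shares 2537 exon bases with CG42660 and CG42661, and all 3 were listed with the same values. Tsp42Eb, at 3.00 in adult CCs, differed from the row of CG30160 by at most 0.08 in any library, so that these reads may not be separable. Exons of 14 of the 36 members overlap those of another gene in the annotation, among them Tsp42Eo and Tsp42Ep, which share 889 bases on opposite strands.

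**Figure D4:**
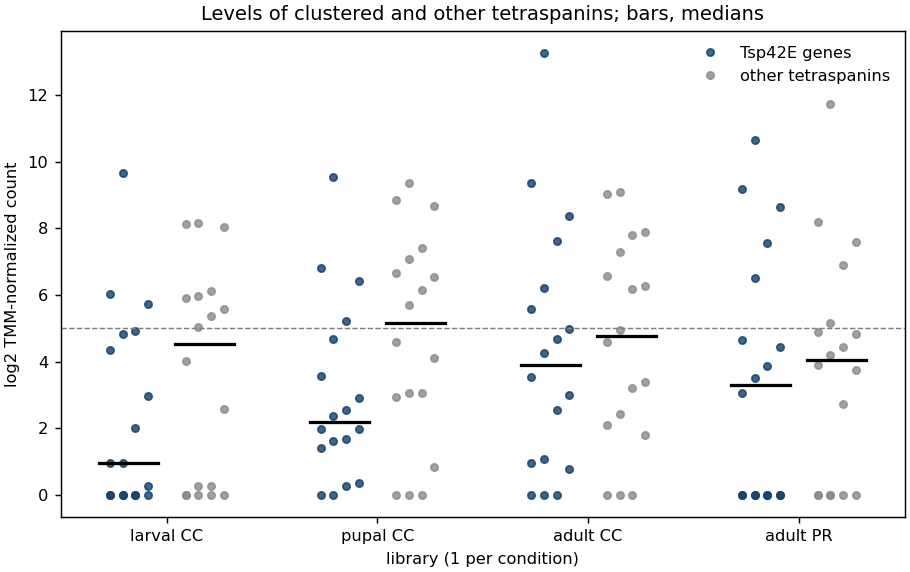
Log2 level of the 18 genes of the Tsp42E cluster (blue) and of the 18 other tetraspanins (grey) in each library. Each point is 1 gene, black bars are medians and the dashed line is at 32 units. The cluster median lies below that of the other genes in each library, at 0.96 and 4.53 in larval CCs and at 3.89 and 4.76 in adult CCs, while the highest point in all 3 CC libraries is Tsp42Ee.

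In each library the median level of the cluster was below that of the other tetraspanins, on the log2 scale that is not divided by gene length. The medians of the 18 cluster genes were 0.96, 2.17 and 3.89 along the CC stages and 3.28 in PRs, and those of the other 18 were 4.53, 5.14, 4.76 and 4.05. The spans overlapped in every library. At 32 units or more were 3, 4 and 6 cluster genes along the CC stages and 5 in PRs, against 9, 9, 8 and 5 of the others. Between adult CCs and PRs 5 cluster genes passed the rule (3 higher and 2 lower) and 4 others (3 higher and 1 lower). In percent these are 27.8 and 22.2, against 14.2 of all genes.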

How the data were processed

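The deposited table holds log2 values: the authors aligned reads to dm3 with TopHat2 2.0 and Bowtie 1.0, made counts for each gene, scaled these by TMM and took log2, and values of 1 or less after scaling are listed as 0. Amplification (Ovation) and the unstated handling of strand and shared reads could change these values, and levels are not divided by gene length. The 24 repeated rows at 0 were left out of 14959 rows, and 0 columns were unmapped.

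Values were returned to linear units, with a listed 0 taken as 0. With 1 library per condition no test was run, and the rule of size given with the first results was applied to all 14935 genes, and its script was checked on simulated data. Those data held count noise alone, without spread between replicates, so the check does not measure how reliable the calls are. Medians cover genes at 8 units or more in either library. The text names each family member by the symbol rule, with values for those that reach 32 units and ranges or peak values for most others, and partner genes that passed the rule or reached 8 times the floor of 32 units. Of the partner lists, kul, Meltrin and Hook were not matched and are not analysed here. The members, the partner lists and the marker lists (photoreceptor, cone cell and lens, pigment cell, hemocyte, fat body, bristle, optic lobe glia, trachea, gut) were chosen with earlier results of these data known. Cluster order, strand, exon overlap and coding length came from Ensembl release 115 (BDGP6), matched by gene ID for all 36 members. Since the table rests on dm3, no coordinates are given. Protein and promoter sequences were not used here. Alternatives changed the added constant, the scaling, the floor, the size of difference, the members in the medians and the level counted as present. After the values were seen, leaving out members with overlapping exons and dividing by exon length were added. Python 3.11.15, numpy 2.4.6, pandas 2.3.3 and matplotlib 3.10.9 were used.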

Additional observations from a re-analysis of the deposited data

How the results depend on the processing

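Over the 3 comparisons, 20 differences of members passed the rule of size, and 6 of them passed it in all 7 alternative settings: Tsp42Ea and Tsp42Ee from pupal to adult CCs, and Tsp42Ee, Tsp42El, Tsp42Ej and Tsp97E between adult CCs and PRs. None changed sign in these settings. With 1 unit added in place of 4, 0 calls were lost; with 16 units 6 were lost. Both scalings gave 5 members higher in PRs, and equal totals lost 4 calls in all. A floor 8 times higher lost 10 calls and the 8-fold rule 8, which follow from their construction.

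From larval to pupal CCs, the members higher in pupal CCs (2 as reported) numbered 1 with 16 units added, 4 with no floor, 0 at the higher floor, 1 at 8-fold and 0 without the members whose exons overlap another gene, and those lower (1 as reported) numbered 0 at the higher floor. From pupal to adult CCs, the lower members (2) numbered 1 with 16 units added, at the higher floor, at 8-fold and without overlapping members, and the higher ones (6) numbered 3 at 8-fold. Between adult CCs and PRs, 3 of the higher members (6) were left at the higher floor and 1 of the lower members (3) without overlapping members.

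The median of the cluster minus that of the other members was -1.10 between adult CCs and PRs, and -0.68 with 16 units added, -1.57 and -1.60 with the scalings, -0.34 over all members, -2.33 over those at 32 units and -0.39 with lbm counted among the others. From larval to pupal CCs it was -0.68, and -0.41 with 16 units, -0.25 over all members and -0.009 with lbm among the others. From pupal to adult CCs it was 2.60, and 3.11 with 1 unit, 1.74 with 16, 2.90 with equal totals, 0.95 over all members and 3.32 over those at 32 units. The cause of these shifts was not tested.

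Counted at 8 units, 23 members were present in adult CCs and 21 in PRs, and at 4 times the level of 32 units 4, 6 and 9 along the CC stages. No paired analysis was possible because each condition has 1 library, and no library could be left out. The PR library, at an estimated 1.60 M reads, gives the least precise low values.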
